A study of Arabidopsis thaliana with 6 samples.

Results

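Xyloglucan endotransglucosylase/hydrolases (XTHs) are enzymes of the plant cell wall, and 6 of them, XTH16, XTH18, XTH19, XTH20, XTH27 and XTH33, are described here in 5-day-old whole seedlings of Arabidopsis thaliana. They were taken by gene symbol from the platform annotation, 1 probe set each, out of 22746 probe sets that were tested and 13513 that are paired with a single gene. The gene table of the TAIR10.1 assembly lists 33 XTH genes. Of these, 10 had a named probe set of their own: the 6 members and XTH21, XTH26, XTH29 and XTH32. The other 23 were not analysed here.

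The first genotype, bzr1-1D, has a dominant allele of the transcription factor BZR1 that gains function, so that the output of brassinosteroid signalling stays on. The second, det2, lacks a steroid reductase of brassinosteroid synthesis and is short of the hormone; the labels do not give its allele. Both are in the Columbia-0 background, were grown with gentle shaking in liquid medium with 1.5% sucrose at 22 °C under constant light, and received 80% ethanol alone, as the mock for a hormone treatment, for 3 hours. Each genotype has 3 ATH1 arrays, 1 from each of 3 experiments that were run in different weeks, and each array was made from RNA of seedlings pooled from a liquid culture. Wild-type and hormone-treated seedlings were not analysed here. The mutated genes BZR1 and DET2 have no named probe set in the annotation used, so their levels were not examined. The genotype labels were not checked. The comparison asks how far the mutants at either end of brassinosteroid action differ in these wall enzymes, and how that difference holds from week to week.

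Xyloglucan is a hemicellulose that lies between the cellulose microfibrils of the primary wall. XTHs cut a xyloglucan chain and join the cut end to another chain, and some members hydrolyse it instead, so that they can both loosen a growing wall and knit new polymer into it. Brassinosteroids promote cell expansion, and an XTH gene, TCH4, was among the early known brassinosteroid-induced genes of Arabidopsis; TCH4 was not analysed here. The 6 members belong to several branches of the family. XTH18, XTH19 and XTH20 are close relatives with XTH17 and are known from roots and hypocotyls, XTH16 is known from shoots that elongate in shade, XTH27 is known from vein development in leaves, and XTH33 differs from most of the family in a predicted membrane-spanning stretch. XTH18 and XTH19 are next to each other on chromosome 4, with XTH24 on the other side of XTH18.

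Values are probe set intensities on a linear scale. Each difference is bzr1-1D minus det2 after 50 was added to the intensities and log2 taken, which makes the difference of dim probe sets smaller than it is, and levels of different probe sets are not set against each other. Whether a probe set also binds RNA of a related XTH was not tested. The arrays had median intensities of 212.8 to 221.4. The 3′ to 5′ ratio of a GAPDH control pair, a sign of RNA completeness, was 0.757 and 0.800 in experiment 1 (bzr1-1D, det2) and between 0.461 and 0.496 on the other 4 arrays. A second GAPDH pair gave 0.990 to 1.16 with no such split, and an actin pair gave 1.22 to 1.25 in bzr1-1D and 1.27 to 1.38 in det2. Of the markers listed, 2 of 14 for green tissue and 1 of 12 for roots were measured, and these gave signal on all arrays. The lowest intensity was 2484 for LHCB4.2, a light-harvesting protein, and 247 for the peroxidase AT5G66390 (PRX72), the only root marker measured. In whole seedlings, fewer cells of a type and less RNA per cell cannot be told apart.

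None of the 6 genes passed the test between the genotypes, and their values fell into 3 kinds. XTH16, XTH18 and XTH33 were higher in bzr1-1D by 1.61-fold, 1.43-fold and 1.39-fold as ratios of mean intensities. Their log2 differences were 0.77, 0.93 and 0.42, which put XTH18 first, and the gaps differed from week to week. The spread of such gaps over all probe sets differed by week too, with an SD of 0.35, 0.59 and 0.47 in experiments 1, 2 and 3. XTH27 was lower in bzr1-1D in all 3 weeks by a small margin. XTH19 and XTH20 had folds of 1.03 and 1.00 between the means. In the limma fit, which blocks on the experiment and adjusts by Benjamini-Hochberg across the 22746 probe sets, 0 of the 6 members had an adjusted p under 0.05. Of all probe sets 0% did, and their smallest adjusted p was 0.565. At an unadjusted p under 0.05 there was 1 of the 6, XTH16, against 6.84% of all probe sets.

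XTH16 (AT3G23730, chromosome 3, probe set 257203_at) had intensities of 958, 589.8 and 893 in bzr1-1D in experiments 1, 2 and 3, against 894, 311 and 313 in det2. The det2 arrays of experiments 2 and 3 were the lowest of the 6 and close to each other, and the det2 array of experiment 1 lay within the range of bzr1-1D. The fold of bzr1-1D over det2 was thus 1.07 in experiment 1, 1.90 in experiment 2 and 2.85 in experiment 3. Means were 814 ± 197 in bzr1-1D and 506 ± 336 in det2 (SD, n = 3 each). The log2 difference was 0.77 ± 0.27 (SE), with an adjusted p of 0.712 by limma (unadjusted p = 0.0399). Without experiment 3 the difference was 0.46. Differences of at least 0.77 in size were found for 3.09% of all probe sets.

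XTH18 (AT4G30280, chromosome 4, 253628_at), which takes part in elongation of the root epidermis, differed most of the 6 between arrays. It had 2194, 2451 and 819 in bzr1-1D in experiments 1, 2 and 3, against 2945, 377.5 and 499 in det2. Both arrays of experiment 1 and the bzr1-1D array of experiment 2 were high, and the other 3 were low, so the genotypes overlapped. The within-experiment fold of bzr1-1D over det2 was 0.745, 6.49 and 1.64. The log2 differences behind them, -0.42, 2.55 and 0.66, span 2.96, and only 0.747% of all probe sets had a span that wide. Means were 1821 ± 878 in bzr1-1D and 1274 ± 1448 in det2 (SD, n = 3 each), so the spread between arrays exceeded the gap. Over the 3 experiments the log2 difference was 0.93 ± 0.58 (SE), with an adjusted p of 0.780 by limma. Without experiment 2 it was 0.12.

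XTH33 (AT1G10550, chromosome 1, 263207_at) had 433, 143 and 290.0 in bzr1-1D, against 365, 138 and 118 in det2. It was higher in bzr1-1D in every week, by 1.19-fold and 1.03-fold in experiments 1 and 2 and by 2.46-fold in experiment 3. The means, 288 ± 145 in bzr1-1D and 207 ± 137 in det2 (SD, n = 3 each), lay closer together than the arrays of either genotype. The log2 difference of 0.42 ± 0.23 (SE) had an adjusted p of 0.758 by limma, and it was 0.13 without experiment 3.

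XTH27 (AT2G01850, listed as EXGT-A3, chromosome 2, 263598_at) had the narrowest span of the 6 between its within-experiment differences. It had 1513, 1575 and 1808 in bzr1-1D, against 1896, 1758 and 2186 in det2. Each det2 array stood above its bzr1-1D partner, with log2 differences of -0.32, -0.15 and -0.27, although the highest bzr1-1D array exceeded the lowest det2 array. Means were 1632 ± 155 in bzr1-1D and 1947 ± 218 in det2 (SD, n = 3 each). The span of 0.16 between these differences was exceeded or matched by 90.8% of all probe sets. The combined difference of -0.25 ± 0.12 (SE) had an adjusted p of 0.751 by limma, with a 95% interval of -0.57 to 0.08.

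**Figure D1:**
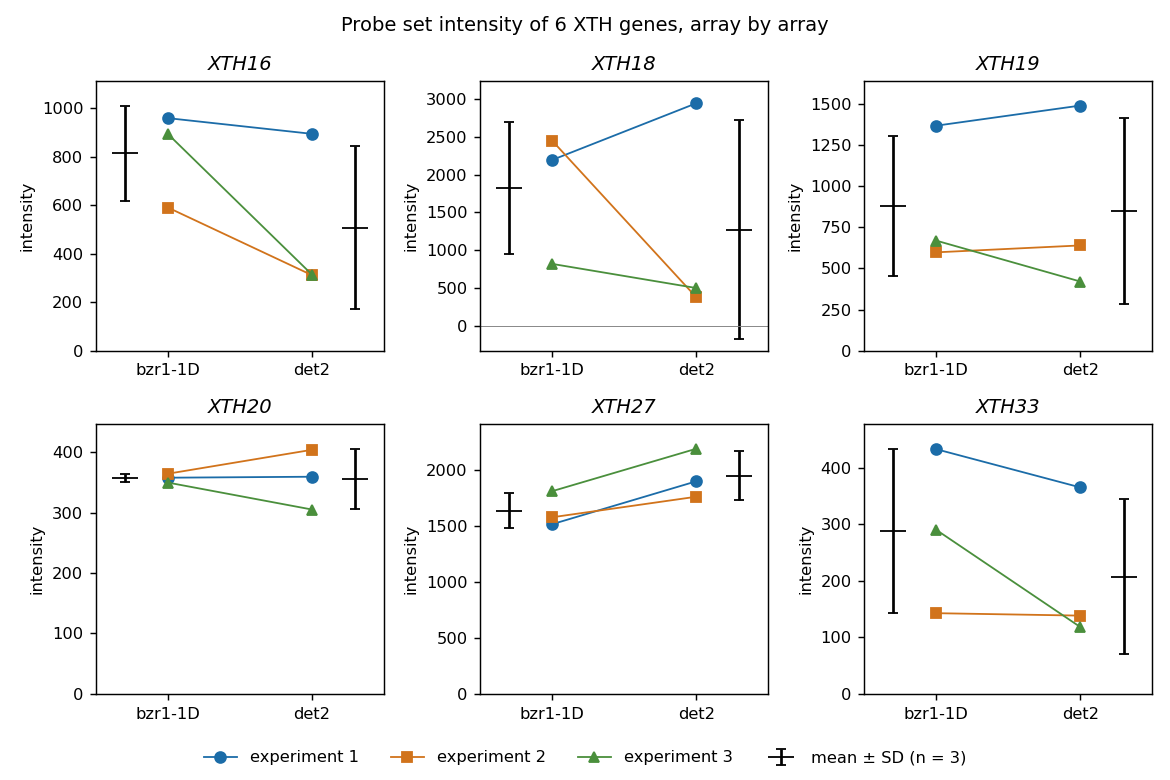
Intensity (vertical axis, linear, as scaled by GCOS to a target intensity of 500) of the 6 XTH probe sets in bzr1-1D (left) and det2 (right). Each line joins the 2 arrays of an experiment, and the black bars at the sides give the mean ± SD of 3 arrays. Each bzr1-1D point of XTH16 and XTH33 stands above its det2 partner, each one of XTH27 stands below, and XTH18 in experiment 2 has 2451 in bzr1-1D against 377.5 in det2.

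XTH19 (AT4G30290, chromosome 4, 253608_at), the neighbour of XTH18, had 1368, 598 and 669 in bzr1-1D, against 1491, 640.1 and 420.5 in det2. Experiment 1 was high in both genotypes and the other weeks were low in both. In experiment 2, where XTH18 was 6.49-fold higher in bzr1-1D, XTH19 had a fold of 0.934. Its log2 difference was 0.13 ± 0.20 (SE), with a 95% interval of -0.39 to 0.65 and an adjusted p of 0.907 by limma.

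XTH20 (AT5G48070, chromosome 5, 248732_at), known from mature root and hypocotyl tissue, was the most even of the 6. It had 358, 364 and 349.6 in bzr1-1D, a coefficient of variation of 2.06%, and 359, 404 and 305 in det2, one of 13.9%. The fold of bzr1-1D over det2 lay between 0.902 and 1.15 in the 3 experiments. The log2 difference was 0.01 ± 0.13 (SE), with an adjusted p of 0.993 by limma, and its 95% interval, -0.34 to 0.36, does not exclude differences up to those bounds.

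Counted by the direction of the difference, 5 of the 6 were higher in bzr1-1D, among them XTH20 at 0.01, and 47.6% of all probe sets were. The median log2 difference of the 6 was 0.28, and that of all probe sets was -0.01. Those with 1 direction in all 3 experiments were 3 of the 6, XTH16, XTH33 and XTH27, against 28% of all probe sets. XTH16 and XTH33 were higher in bzr1-1D each time, as were 12.4% of all probe sets, and XTH27 was lower each time, as were 15.5%. For 0 of the 6 did the arrays of the genotypes not overlap, against 9.32% of all probe sets. With the other 4 XTH genes added, 5 of 10 were higher in bzr1-1D, and the median was -0.01.

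**Figure D2:**
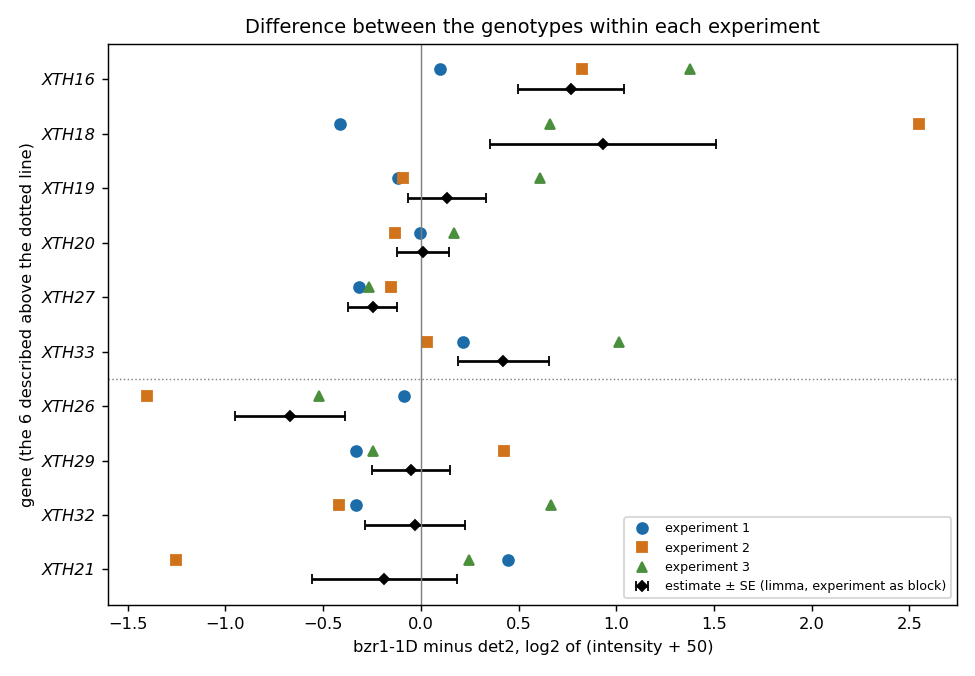
Values of bzr1-1D minus det2 within each experiment (coloured symbols) and over the 3 experiments (black diamonds, estimate ± SE) for 10 XTH genes; the horizontal axis is in log2 of intensity plus 50, and the 6 genes described lie above the dotted line. XTH18 spreads from -0.42 to 2.55 while XTH27 stays between -0.32 and -0.15.

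The experiments, run in different weeks, were compared next. Averaged over the genotypes, XTH16, XTH18, XTH19 and XTH33 had their highest level in experiment 1, with mean intensities in experiments 1, 2 and 3 of 926, 450.4 and 603 for XTH16 and of 2569.65, 1414 and 659 for XTH18. For XTH19 the means were 1429, 619 and 545, and for XTH33 they were 399, 141 and 204. XTH20, with 358.5, 384 and 327, and XTH27, with 1705, 1667 and 1997, stayed within a narrow range. So 4 of 6 members were highest in experiment 1, as were 5 of all 10 XTH genes and 34.8% of all probe sets.

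The difference between experiments was tested for each gene with limma's moderated F test, with the genotype in the fit. For XTH19 the highest and lowest experiment means were 1.35 apart on the log2 scale, with an adjusted p of 0.350 (unadjusted p = 0.00643). XTH33 had a distance of 1.23 and an adjusted p of 0.408 (unadjusted p = 0.0200) by the same limma test. These were the 2 of 6 members with an unadjusted p under 0.05, against 11.1% of all probe sets, and 0 of 6 passed adjustment, against 0% of all. Dropping experiment 1 left 0 of 6 members and 1310 of the 22746 probe sets with an unadjusted p under 0.05, so the count fell across the series too. With experiment 2 dropped there were 3 members and 3433 probe sets, and with experiment 3 dropped 3 members and 2021 probe sets. The fit of all arrays had 2524 such probe sets. Without experiment 1 the distance was 0.20 for XTH19 and 0.33 for XTH33, with unadjusted p of 0.460 and 0.332 by limma, and it was 0.58 for XTH18 and 0.28 for XTH16. Leaving out the experiment with the highest mean can only lower this distance. XTH18 had the widest distance, 1.91, and an adjusted p of 0.511 by limma. XTH16 stood at 1.02 with an adjusted p of 0.472 by limma, XTH27 at 0.25 and XTH20 at 0.20.

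Both arrays of experiment 1 lay above the other 4 arrays for 3 of the 6, XTH16, XTH19 and XTH33, against 12.7% of all probe sets. For XTH16 the margin was 894 against 893. Within bzr1-1D, the fold of experiment 1 over experiments 2 and 3 was 0.895 and 2.68 for XTH18, and within det2 it was 7.80 and 5.90. For XTH16 these folds were 1.62 and 1.07 among bzr1-1D arrays, against 2.87 and 2.85 among det2 arrays. XTH19 had 2.29 and 2.04 among bzr1-1D arrays, against 2.33 and 3.54 among det2 arrays, so experiment 1 was above the others by over 2-fold in both genotypes.

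Some other values moved with the weeks. The higher GAPDH 3′ to 5′ ratio of experiment 1, 0.757 and 0.800 against 0.461 to 0.496, lay on the same arrays as the high XTH19 and XTH33. The second GAPDH pair and the actin pair did not set experiment 1 apart. Both measured low oxygen genes were at their highest in experiment 3. AT3G10040 (HRA1), a regulator of the low oxygen response, had 93.8, 111 and 2900 in bzr1-1D, against 44.7, 77.3 and 3534 in det2. PDC2, a pyruvate decarboxylase of fermentation, had 713, 1929 and 2359 in bzr1-1D, against 1661, 1068 and 3813 in det2. That list holds 22 genes, of which these 2 were measured. The part of these values in the XTH levels was not tested, and week of growth and array handling cannot be told apart.

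**Figure D3:**
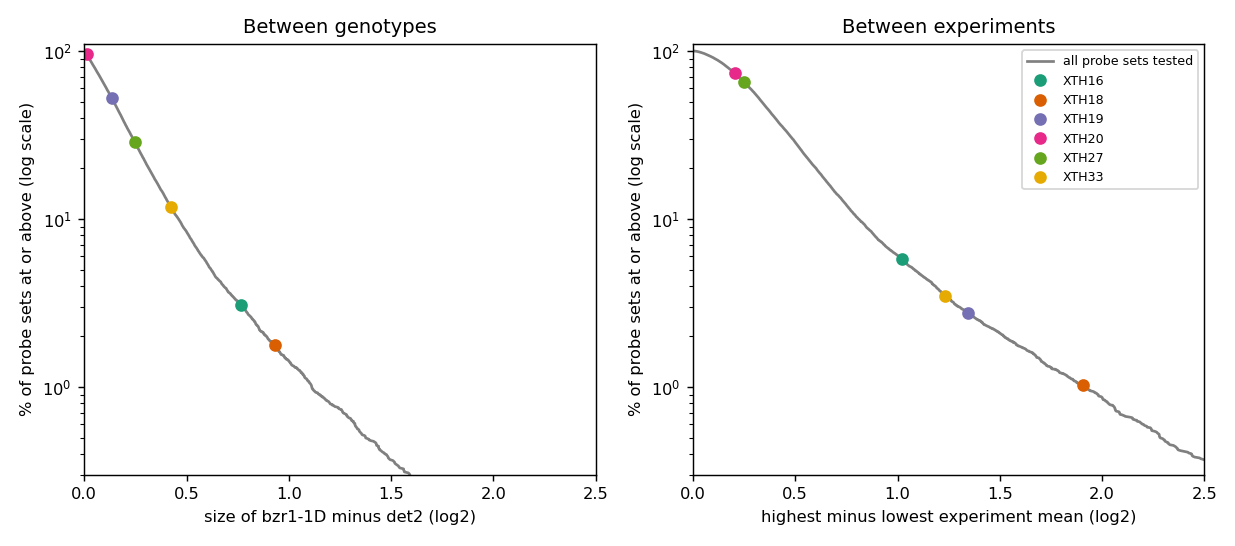
Share of all 22746 probe sets (vertical axis, log scale) with a value at or above the one on the horizontal axis, for the size of bzr1-1D minus det2 (left) and for the distance between the highest and lowest experiment means (right), both in log2; coloured points mark the 6 XTH genes. XTH18 and XTH16 lie at 1.77% and 3.09% on the left, and XTH18, XTH19, XTH33 and XTH16 lie between 1.02% and 5.77% on the right.

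The members' patterns across the arrays were alike for some pairs and unlike for others. These correlations of log2 of intensity plus 50 are descriptions over 6 arrays that come in 3 pairs by week. XTH16 and XTH33 had a Pearson r of 0.91, and XTH19 and XTH33 one of 0.90. The neighbours XTH18 and XTH19 had 0.71, and the bzr1-1D array of experiment 2 set them apart: relative to its own mean over the arrays, XTH18 stood at 1.03 there and XTH19 at -0.36 on the log2 scale. XTH20 had an r of 0.06 with XTH16, 0.06 with XTH18 and 0.11 with XTH33. XTH20 and XTH27 had an r of -0.61 with each other, and XTH27 was negatively related to all other members.

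**Figure D4:**
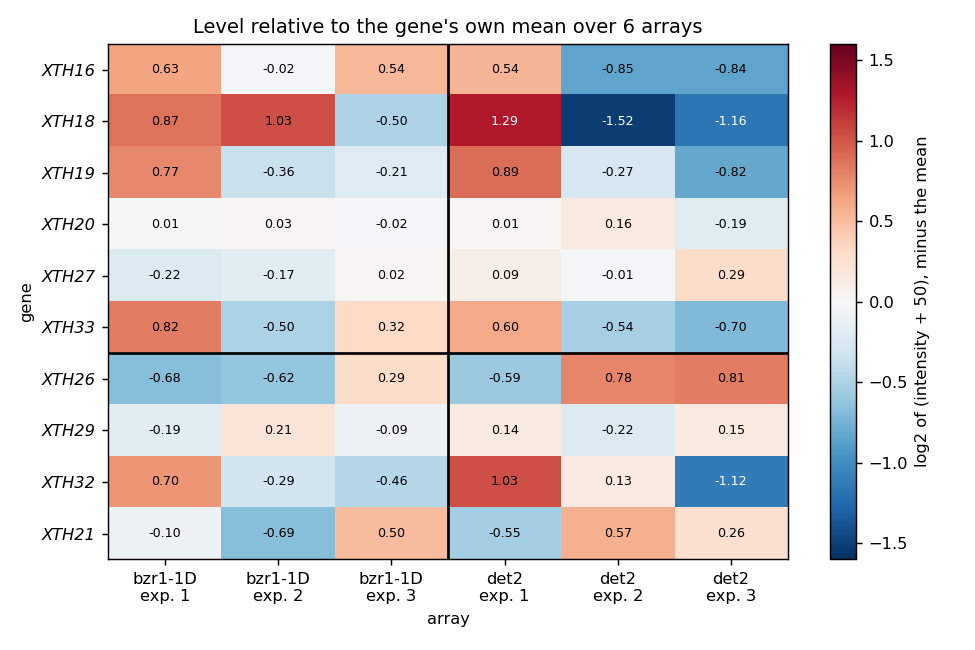
Level of 10 XTH genes (rows, the 6 described on top) on each array (columns, bzr1-1D left, det2 right), as log2 of intensity plus 50 minus the gene's mean over the 6 arrays. XTH18 is at 0.87 and 1.03 on the first 2 bzr1-1D arrays and at 1.29 on the first det2 array, where XTH26 is at its lowest, -0.68, -0.62 and -0.59.

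Of the 4 further XTH genes, 1 had a mean intensity of at least 100 over the arrays. This was XTH32 (AT2G36870), of the branch of the family that holds xyloglucan hydrolases, which had 2662, 1314 and 1166 in bzr1-1D, against 3362, 1776 and 717 in det2. Its r with XTH19 was 0.95, and its log2 difference was -0.03 ± 0.26 (SE). Its distance between experiments was 1.66, with an adjusted p of 0.392 by limma's F test (unadjusted p = 0.0109), and it was 0.71 without experiment 1.

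XTH26 (AT4G28850), known from root hairs, had 4.4, 6.9 and 56.9 in bzr1-1D, against 7.8, 100.3 and 103.5 in det2. It was high where XTH18 was low, with an r of -0.98 over the 6 arrays. Each week its bzr1-1D array was the lower one, as for 15.5% of all probe sets. On the arrays where XTH18 was high, XTH26 had 4.4, 6.9 and 7.8, far below the offset added before log2 was taken. For XTH26 the r and the direction in experiment 1, 4.4 against 7.8, thus rest in part on values near the floor. Its log2 difference of -0.67 ± 0.28 (SE) had an adjusted p of 0.730 by limma, and it was -1.85 without an offset, -0.30 without experiment 2 and -0.96 without experiment 1. Its distance between experiments was 1.19, with the lowest level in experiment 1, and its adjusted p was 0.450 by limma's F test (unadjusted p = 0.0496). The root hair markers EXPA7 and EXPA18, 2 measured of 13 listed, had log2 differences of -0.82 and -0.57. Their summed intensity lay between 131 and 333 in bzr1-1D and between 419.7 and 549 in det2, and neither was at 0. For both genes the arrays of the genotypes did not overlap, as for 9.32% of all probe sets. The adjusted p was 0.726 for EXPA7 and 0.743 for EXPA18 by limma. In experiment 2 the log2 differences of EXPA7 and EXPA18 were -1.71 and -1.32. They were -0.22 and -0.37 in experiment 1, and -0.52 and -0.03 in experiment 3. Their part in the XTH26 and XTH18 values was not tested. XTH21 (AT2G18800), a gene of root growth, stayed between 5.6 and 82.7, and XTH29 (AT4G18990) between 18.9 and 42.5, on all 6 arrays. Their distances between experiments were 0.70 and 0.05, with the lowest level in experiment 1 and adjusted p of 0.699 and 0.996 by limma's F test.

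Among 8461 other probe sets with 1 named gene and a mean intensity of at least 100, those with the most similar pattern over the 6 arrays were AT4G29020 for XTH16 (r = 0.992), AT3G07440 for XTH18 (r = 0.993), AT1G70900 for XTH19 (r = 0.993), AT5G11780 for XTH20 (r = 0.992), AT3G17365 for XTH27 (r = 0.990) and AT3G07910 for XTH33 (r = 0.996). AT4G29020 had 9685.5, 4528 and 7062 in bzr1-1D, against 7682, 2001 and 1690.5 in det2. It thus shared the low det2 values of experiments 2 and 3 with XTH16. An r of at least 0.9 was reached by 163 probe sets for XTH16, 188 for XTH18, 230 for XTH19 and 189 for XTH33, but by 28 for XTH20 and 73 for XTH27. With 6 arrays and so many candidates, no link between genes is read from such values.

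The other genes of xyloglucan and wall growth were measured in part. Of the xyloglucan synthesis list 4 of 25 genes had a named probe set, all of them glucan synthases of the CSLC group, which make the xyloglucan backbone. Of these 2 were higher and 2 lower in bzr1-1D, with log2 differences of -0.07 for CSLC6, 0.21 for CSLC04, -0.15 for CSLC12 and 0.07 for CSLC5, and limma gave 0 of them an unadjusted p under 0.05. The xyloglucan breakdown list and the brassinosteroid response list had 0 measured genes. Expansins loosen the wall without cutting its polymers. The 18 genes counted here as expansins include expansin-like ones (EXLA and EXLB), whose activity was not examined. Of the 18, 12 were higher and 6 lower in bzr1-1D, where 47.6% of all probe sets were higher. The median of the 18 was 0.08 on the log2 scale. An unadjusted p under 0.05 by limma was found for 1 of the 18, EXLB1, and for 6.84% of all probe sets. The first 4 by locus, EXPA7, EXPA18, EXPB2 and EXPA15, stood at -0.82, -0.57, 0.10 and 0.17.

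Of 6 cellulases and pectin enzymes 3 were higher and 3 lower, with GH9B5 at 0.36, GH9C1 at -0.70, GH9C2 at -0.03 and GH9B7 at 0.56, and limma gave 0 of them an unadjusted p under 0.05. GH9B7, an endoglucanase, had 2488, 2346 and 2739.6 in bzr1-1D, against 2594, 1515 and 1220.4 in det2, so that, like XTH16, it was lower in det2 in experiments 2 and 3. Of 5 touch response genes 4 were higher and 1 lower, with STZ at 0.72, CML23 at 0.38, AT1G76640 at -0.24 and CML38 at 0.25, beside 47.6% higher among all probe sets. An unadjusted p under 0.05 by limma was found for 1 of the 5, CML37 (adjusted p = 0.700), and for 6.84% of all probe sets. Only 2 of the 5, STZ and CML38, had a mean intensity of at least 100. CML37 had 71.2, 88.3 and 42.4 in bzr1-1D, against 34.5, 18.1 and 4.6 in det2. AT1G76640 had 6.5, 32.3 and 10.5 in bzr1-1D, against 7.3, 10.5 and 82.6 in det2. The differences of CML37 and AT1G76640 thus rest in part on values near the floor. In these lists 0 genes passed adjustment. The dividing cell markers AUR1 and AUR2 were at 0.27 and 0.01, the green shoot markers PORB and LHCB4.2 at 0.45 and -0.33, the root marker AT5G66390 at 0.44 and the seed marker PAP85 at -0.15, and the xylem and phloem list had 0 measured genes.

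The expansins give a second family of wall proteins to set beside the XTHs. The median distance between experiment means was 1.13 for the 6 XTHs and 1.11 for all 10 XTH genes. It was 0.34 for the 18 expansins and 0.34 for all probe sets, and no test was made of that contrast. The median size of bzr1-1D minus det2 was 0.33 for the 6 XTHs, 0.22 for the expansins and 0.14 for all probe sets. For all 10 XTH genes it was 0.22, the same as for the expansins. A mean intensity of at least 100 was reached by all 6 members and by 14 of the 18 expansins.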

How the data were processed

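Per the labels, the authors hybridised biotinylated cRNA to Affymetrix ATH1 arrays and computed the deposited intensity of each probe set with GCOS 1.1 at a target intensity of 500. The later division by a percentile and by the wild type in GeneSpring 7.0, also per the labels, is not in these values. Of 22810 probe sets, 64 controls were left out. Intensities were raised by 50 and log2-transformed with no further scaling and no filter. The platform annotation pairs 13513 probe sets with 1 gene, 503 with more than 1 and leaves 8730 unnamed; 13436 matched a locus of the TAIR10.1 gene table, used only for names and neighbours. The tests were two-sided limma 3.58.1 fits (lmFit, eBayes, R 4.3.3) over 22746 probe sets with Benjamini-Hochberg adjustment. A check on simulated data set a limit only on the median size of the recovered genotype differences, not on the calls. A call is an adjusted p under 0.05.

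Per the labels, every numbered experiment was run on all genotypes side by side, so the experiment is a block. Deviations of same-numbered arrays from their genotype means correlated at 0.39, 0.08 and 0.37 across probe sets in experiments 1, 2 and 3. For unlike-numbered arrays the values ran from -0.37 to 0.11. The highest of these was between bzr1-1D of experiment 3 and det2 of experiment 2. The pair of experiment 2, at 0.08, was thus below an unlike-numbered pair. The arrays are labelled biological replicates, and 3 per genotype limit the precision. The labels do not say whether the pools came from separate seed lots. The members, lists and rule for naming genes (the members, the other XTHs, the 3 most similar probe sets of each, of which the first is given, and the first 4 measured by locus of each list) were chosen with earlier results of these data known. EXLB1, CML37 and the values of AT4G29020 and GH9B7 were picked after their values were seen. Alternatives were offsets of 16 and 0, median centring, quantile normalization, a mean intensity of at least 100, eBayes robust or trend, fits without the block, with a random block or without the genotype term, and each experiment left out. Probe and gene sequences were not used here. Figures were drawn with matplotlib 3.10.9.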

Additional observations from a re-analysis of the deposited data

How the results depend on the processing

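With the experiment left out in turn or the processing altered, 0 of the 6 XTH genes had an adjusted p under 0.05 by limma in any fit, between genotypes or between experiments. The adjusted p of XTH16 between genotypes ran from 0.333 (without experiment 1, log2 difference 1.10) to 0.989 (no replicate block), and its unadjusted p of 0.0399 was 0.108 with no replicate block, 0.0688 with a random block, 0.0651 with no offset, 0.0948 without experiment 2 and 0.164 without experiment 3. Leaving out an experiment moved the log2 difference of XTH16 between 0.46 and 1.10, of XTH18 between 0.12 and 1.61, of XTH33 between 0.13 and 0.62, of XTH27 between -0.29 and -0.21 and of XTH26 between -0.96 and -0.30. It moved the distance between experiments of XTH19 between 0.20 and 1.35, of XTH33 between 0.33 and 1.23 and of XTH18 between 0.58 and 1.91. For XTH16 the distance moved between 0.28 and 1.02, for XTH27 between 0.02 and 0.25 and for XTH20 between 0.09 and 0.20. The lowest values of the first 4, which were highest in experiment 1, were those without experiment 1. By its definition this distance can only fall or stay when an experiment is left out. Leaving out an experiment turned the direction between genotypes of XTH19 (-0.105 to 0.261) and XTH20 (-0.0687 to 0.0825). Of the other family members it turned XTH29 (-0.288 to 0.0893), XTH32 (-0.376 to 0.166) and XTH21 (-0.506 to 0.346), and the cause was not tested. No direction of the 10 XTHs turned under the other alternatives, though XTH21, XTH26 and XTH29 were below the minimum of 100 and were not fitted there. The count of all probe sets past an adjusted p of 0.05 between genotypes was 0. No replicate block gave 1, and a random replicate block gave 1; between experiments it was 0, and 4 with no genotype term, where a term fewer was fitted. Arrays per genotype, 3, limit what could be called.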
